A study of Mus musculus with 2 samples.

Results

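The proteasome genes described here are 48 of the 55536 annotated genes measured in total RNA from mouse hippocampus. They were chosen by symbol: every gene whose name begins with Psma, Psmb, Psmc, Psmd, Psme, Psmf or Psmg and a number and which has a protein-coding transcript, leaving out 2 inducible core genes, Psmb8 and Psmb9. The rule itself uses no measured value. Of the 48, 14 encode the constitutive 20S core, 3 its inducible or tissue-restricted variants, 17 the 19S regulatory particle, 7 assembly chaperones and 6 activators or an inhibitor. The last, Psmc3ip, matches by name alone: its product is a cofactor of meiotic recombination and not a proteasome subunit.

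The proteasome degrades proteins that have been tagged with ubiquitin. Its 20S core is a barrel of stacked rings, in which outer alpha rings gate the entry and inner beta rings carry the peptidase sites. The 19S particle caps the barrel, binds ubiquitin chains, removes them and threads the unfolded substrate inward with a ring of ATPases. In neurons, proteasomes turn over synaptic proteins, and blocking them alters synaptic plasticity.

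The tissue came from female mice of the B6CASTF1/J strain, a first-generation cross of C57BL/6J with CAST/EiJ, aged 18 to 20 months. There was 1 group and no treatment or other genotype, in 2 libraries labelled as biological replicates 1 and 2, each made from 300 ng of RNA. Their donor labels are identical, so the labels leave unclear whether 1 animal or more gave the tissue, and the spread between the libraries may be technical. With 1 group of 2 libraries no test between conditions exists, and the comparisons below are between these libraries.

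Gene-assigned expected counts (estimated reads per gene, rounded) summed to 35358099 in replicate 1 and 36307276 in replicate 2. Markers of hippocampal fields were detected, 6 of 6, and so were 5 of 5 markers of excitatory neurons. Their summed levels were 340 and 327 TPM (a level per transcript length, scaled to a fixed total per library) and 2558 and 2404 TPM in replicates 1 and 2. Several other marker sums differed more between the libraries. Summed choroid plexus markers were 154 and 51.9 TPM, with 2 of 4 detected. Most of that sum was Ttr, at 150 and 49.1 TPM. Clic6 and Folr1 were also lower in replicate 2, but Kcnj13 was higher there (1.10 and 1.44 TPM). Meningeal fibroblast markers were 28.2 and 58.4 TPM, with 4 of 5 detected, and erythroid markers 343 and 518 TPM, with 4 of 4. Oligodendrocyte markers were 1128 and 816 TPM, with 5 of 5. Microglial markers, 5 of 5 detected, were 130 and 123 TPM, and lymphocyte markers, 0 of 4 detected, 0.150 and 0.220 TPM.

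Proteasome RNA was abundant and nearly equal in both libraries. Of the 48 genes, 45 were detected (at least 1 TPM in both libraries), against 25.9% of all genes and 57.8% of nuclear protein-coding genes. The members held 66907 counts in replicate 1 and 68586 in replicate 2, which was 0.189% ± 0.000228 (SD, n = 2) of gene-assigned counts. The median TPM of the 45 detected members was 45.0 in replicate 1 and 43.2 in replicate 2. For all detected protein-coding genes it was 14.7 and 14.1, and 29 of the 48 members lay above the upper quartile of those genes, 31.8 TPM. In bulk tissue, fewer cells of a type and less RNA per cell cannot be told apart.

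**Figure D1:**
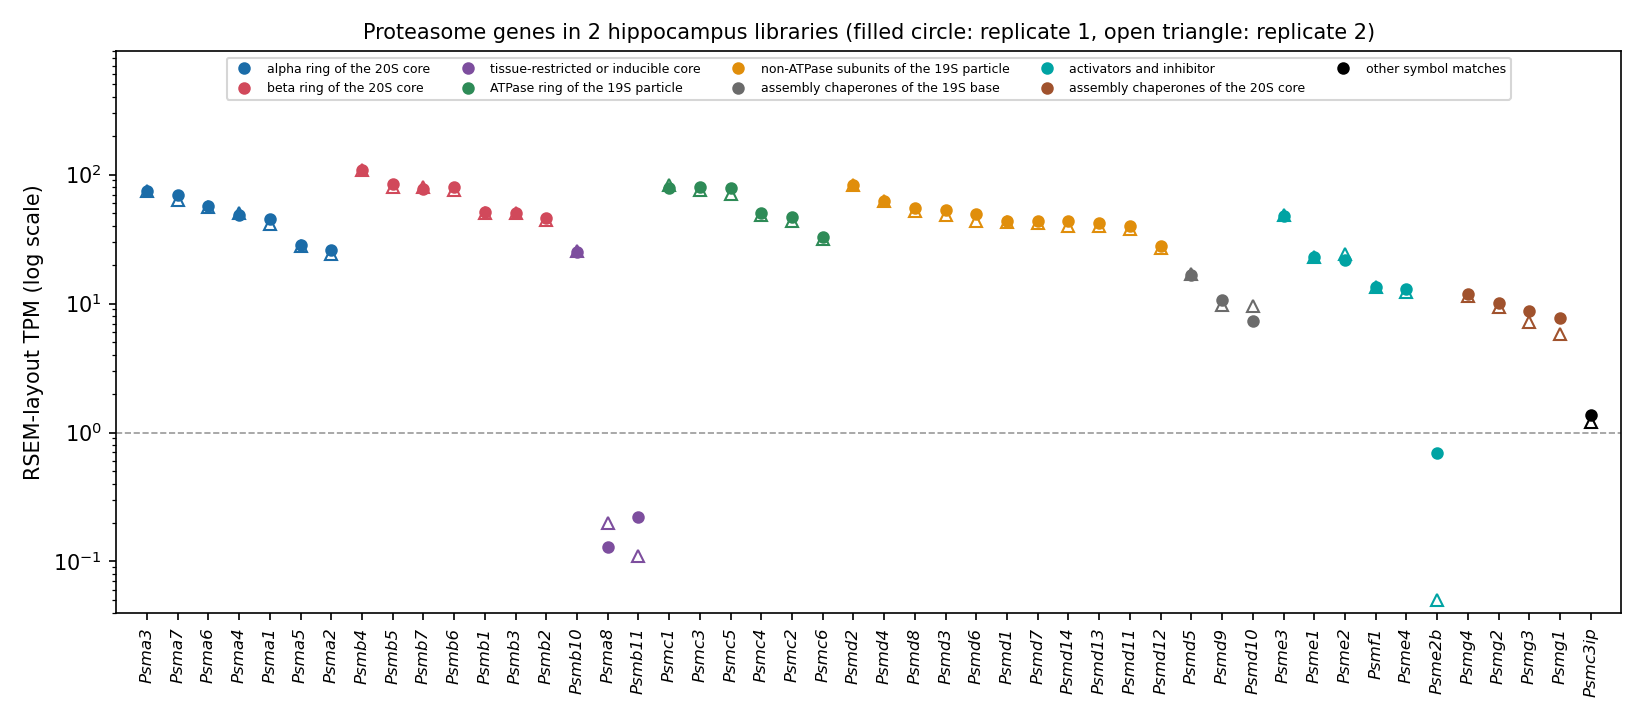
RSEM-layout TPM (log axis) of each of the 48 genes in replicate 1 (filled circle) and replicate 2 (open triangle), coloured by role and ordered by mean within a role; the dashed line marks 1 TPM, and the replicate 2 value of Psme2b, which is 0, is drawn near the bottom of the axis. Core and 19S genes lie between 24.1 and 109 TPM, the chaperones between 5.80 and 17.1 TPM, and Psma8, Psmb11 and Psme2b below 1 TPM.

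The beta ring of the core had the highest median among the roles in RSEM-layout TPM; in kallisto-layout TPM, the second deposited quantification, it was 106 against 107 for the ATPase ring. Its 7 genes reached a median of 76.7 ± 1.44 TPM (SD, n = 2), against 49.2 ± 1.15 TPM for the 7 alpha genes. Psmb4, a structural beta subunit, stood highest of all members at 108 TPM in replicate 1 and 109 in replicate 2 (2384 and 2421 counts). The genes of the peptidase sites followed close together. Psmb5, the chymotrypsin-like site, was at 84.2 and 79.9 TPM, Psmb7, the trypsin-like site, at 77.8 and 79.9 TPM, and Psmb6, the caspase-like site, at 79.9 and 75.7 TPM. In the RSEM layout the ranges of these 3 met or overlapped between libraries, so their order cannot be told there. In kallisto-layout TPM Psmb7 (134 and 142) was above Psmb6 (125 and 123), and Psmb5 (107 and 105) was lowest. Over coding transcripts alone Psmb6 was lowest (69.4 and 66.1 TPM), below Psmb7 (77.5 and 79.6) and Psmb5 (84.2 and 79.9). The remaining beta genes, Psmb1, Psmb3 and Psmb2, are structural and lay between 44.2 and 51.4 TPM in the RSEM layout.

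The alpha ring spanned a wider range. Psma3 was highest at 74.8 and 74.7 TPM (1730 and 1856 counts), and Psma2 lowest at 26.0 and 24.1 TPM (1477 and 1503 counts). Psma2 therefore had counts close to those of Psma3 and a lower level per length. Its leading transcript, Psma2-201, is annotated at 2911 bases and held 62.7% and 66.5% of the gene's TPM. Psma7, Psma6, Psma4 and Psma1 lay between 41.2 and 69.1 TPM, and Psma5 at 28.2 and 28.1 TPM. Over coding transcripts alone Psma3 was at 42.8 and 44.0 TPM, below Psma7 (57.2 and 55.6), Psma6 (54.3 and 54.2) and Psma4 (45.4 and 47.7). Across the 14 core genes the highest mean TPM was 4.33 times the lowest, and 12 of 14 lay within 2-fold of their median of 53.6 TPM.

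Genes of the 19S particle spanned a narrower range than the core genes in both layouts, but not over coding transcripts alone, where the spreads were 3.92-fold and 3.28-fold. In RSEM-layout TPM the highest mean of its 17 genes was 3.01 times the lowest, and 17 of 17 lay within 2-fold of their median, 46.3 TPM. The ATPase ring had a median of 62.3 ± 3.27 TPM (SD, n = 2). Psmc1 had the highest mean, at 78.9 and 82.3 TPM (2434 and 2548 counts), and overlapped Psmc3 and Psmc5, which were within 70.9 to 80.3 TPM. Psmc3 was higher in the kallisto layout (171 and 162 TPM against 141 and 144), and Psmc5 over coding transcripts (76.4 and 68.9 TPM against 60.1 and 57.6). Psmc4 and Psmc2 were within 43.6 to 50.2 TPM. Psmc6 was lowest at 32.8 and 31.7 TPM (1339 and 1365 counts), but not in the kallisto layout (90.7 and 101 TPM against 74.4 and 76.1 for Psmc4).

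The 11 non-ATPase genes had a median of 43.4 ± 0.148 TPM. Psmd2, a scaffold of the base that docks shuttle factors, was highest at 83.0 and 83.2 TPM (5583 and 5830 counts). Psmd4, a receptor for ubiquitin chains, was next at 62.1 and 62.8 TPM. In kallisto-layout TPM, at 77.4 and 78.3, Psmd4 was below Psmd8 (87.9 and 88.7), Psmd1, Psmd6 and Psmd3. Psmd14, the deubiquitinase that removes the chain, was at 43.4 and 40.2 TPM, and Psmd1, the other large scaffold of the base, at 43.4 and 43.2 TPM. Psmd12, a subunit of the lid, was lowest at 28.2 and 27.1 TPM (1298 and 1309 counts). Over coding transcripts alone Psmd13 was lower, at 24.5 and 20.4 TPM. The other lid genes, Psmd3, Psmd6, Psmd7, Psmd8, Psmd11 and Psmd13, lay between 38.0 and 55.4 TPM. The median core gene stood 1.10 times as high as the median 19S gene in replicate 1 and 1.22 times in replicate 2, a mean of 1.16 ± 0.0904.

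The Psmg and Psmd assembly chaperones, which are absent from the finished particle, had medians several-fold below those of the subunits. Psmg1 to Psmg4 encode the chaperones that build the alpha ring. Psmg4 was highest at 11.8 and 11.5 TPM (130 and 135 counts), Psmg2 was at 10.1 and 9.45 TPM, Psmg3 at 8.80 and 7.17 TPM, and Psmg1 lowest at 7.68 and 5.80 TPM (179 and 148 counts). The median core gene was 6.07 ± 0.493 times (SD, n = 2) as high as their median. For the 19S base, Psmd5 was at 16.7 and 17.1 TPM (1163 and 1157 counts), Psmd9 at 10.7 and 9.77 TPM, and Psmd10 at 7.36 and 9.55 TPM. The median 19S gene was 4.53 ± 0.0996 times as high as these 3.

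Among the alternative caps, Psme3, the nuclear activator PA28 gamma, was highest at 47.6 and 48.6 TPM (2627 and 2712 counts). Psme1 and Psme2, whose products form the interferon-inducible PA28 alpha and beta ring, were at 22.9 and 23.0 TPM and at 21.7 and 24.02 TPM. The values of these 2 genes overlapped in RSEM-layout TPM only. Psme1 was higher in kallisto-layout TPM (43.1 and 45.8 against 27.9 and 29.1) and over coding transcripts (17.6 and 17.0 TPM against 12.4 and 13.1). Psmf1, which encodes the inhibitor PI31, was at 13.4 TPM in both libraries. Psme4, the large activator PA200, was the lowest detected gene of this role at 13.0 and 12.3 TPM (1587 and 1526 counts). Over coding transcripts alone Psmf1 was lower, at 7.95 and 9.26 TPM against 10.9 and 9.40 for Psme4.

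The core variants were low except for Psmb10, the inducible counterpart of Psmb7. Psmb10 was at 25.2 and 25.6 TPM (435 and 469 counts), which was 24.4% ± 0.134 (SD, n = 2) of Psmb7 plus Psmb10. Most of that TPM lay in transcripts with no coding sequence, as described below, but by expected counts they held 48.7% and 52.3%. Counting coding transcripts alone in the RSEM layout, Psmb10 was at 7.22 and 6.76 TPM, and its share was 8.18%. In the kallisto layout the coding transcript of Psmb10 was at 17.9 and 17.4 TPM, and that of Psmb7 at 134 and 142 TPM. Psma8, the testis variant of Psma7, had 5 counts in each library, at 0.130 and 0.200 TPM, against 69.1 and 62.9 TPM for Psma7. Psmb11, the thymus variant of Psmb5, had 15 and 13 counts, at 0.220 and 0.110 TPM. Psmc3ip was detected just above the threshold, at 1.37 and 1.21 TPM (41 and 36 counts).

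Psme2b, an intronless gene on chromosome 11 that resembles Psme2, was listed at 13 counts in replicate 1 and 0 in replicate 2, where a count of 0 allows up to 3. In the kallisto-layout tables it had 4 estimated counts in each library. Its coding sequence matched that of Psme2 (transcript Psme2-208) at 712 of 717 bases, 99.3%. The stretches below show 60 coding bases of each, in GENCODE M21 transcripts on GRCm38, with the differing bases in capitals. They lie at chr11:48945595-48945654 and, across a splice junction, within chr14:55588068-55588265, both on the minus strand.
Psme2b-201: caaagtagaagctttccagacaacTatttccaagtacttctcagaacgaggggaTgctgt
Psme2-208: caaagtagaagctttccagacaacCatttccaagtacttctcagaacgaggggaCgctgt
Only 2 of the 60 bases differ, and reads between such positions fit both genes. Low counts of Psme2b are therefore uncertain.

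Few members differed between the libraries. A mean count of at least 50 was required, which 44 members met; Psma8, Psmb11, Psme2b and Psmc3ip did not. Of the 44, 2 were over 1.2-fold apart (4.55%), against 10.4% of all 14307 genes tested. Psmd10 was higher in replicate 2, as were 5.62% of all genes, and Psmg1 in replicate 1, as were 4.75%. None was over 2-fold apart, against 0.384%. Members had higher counts (median 1408) than all genes tested (median 722), which narrows counting error, so these shares are not like for like. The median log2 ratio of replicate 2 over replicate 1 was 0.000 for members and 0.000 for all genes, with 22 members higher in each library. The median absolute log2 ratio was 0.044 for members and 0.070 for all genes. The summed oligodendrocyte, choroid plexus, meningeal and erythroid markers moved between the same libraries, and their part in the member values was not tested.

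**Figure D2:**
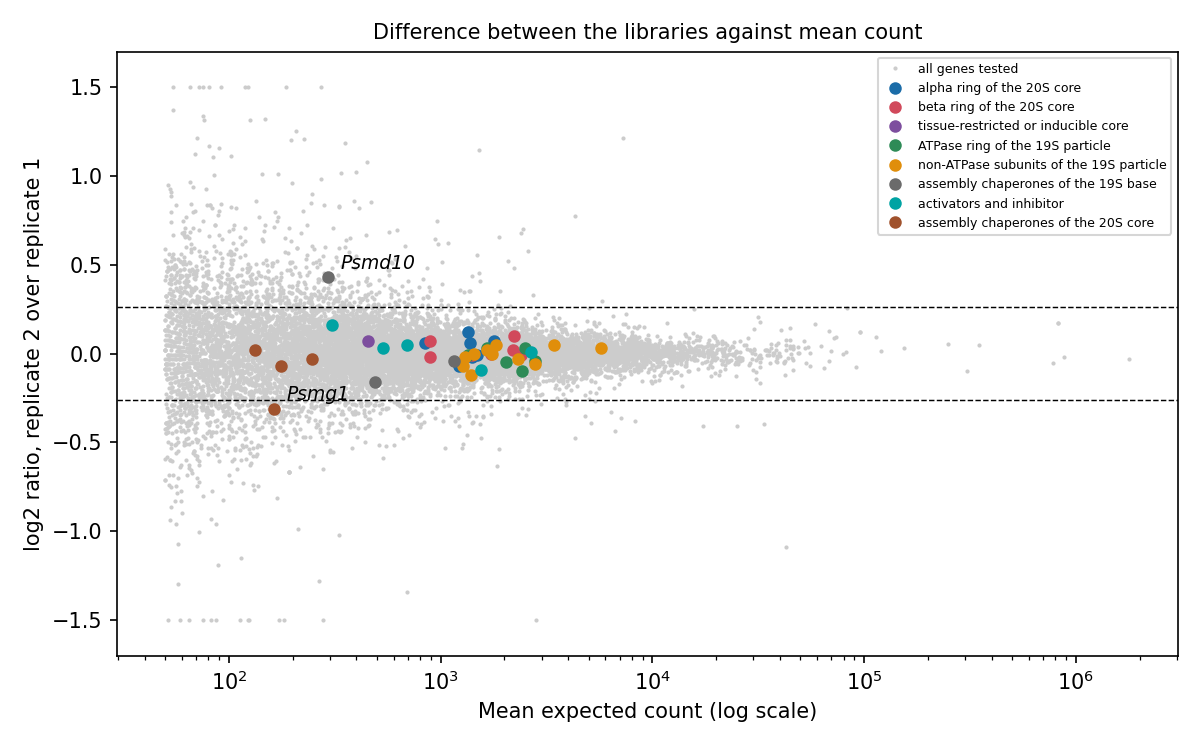
Log2 ratio of scaled counts, replicate 2 over replicate 1, against mean expected count (log axis), for all 14307 genes tested (grey, values past 1.5 drawn at the edge) and the 44 proteasome members tested (coloured by role); dashed lines mark 1.2-fold. Psmd10 lies above the upper line, Psmg1 below the lower one, and the other members lie between them.

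The 95% counting interval of the fold excluded 1 for 5 of 44 members (11.4%), against 20.1% of all genes tested. Psma4 had 1272 and 1420 counts and was 1.09-fold higher in replicate 2 (interval 1.01 to 1.18), and Psmb7 had 2117 and 2325 counts and was 1.07-fold higher (1.01 to 1.14). Psmc5 had 2467 and 2358 counts and was 1.07-fold higher in replicate 1 (1.01 to 1.13), and Psmd6 had 1433 and 1354 counts and was 1.08-fold higher there (1.01 to 1.17). In the kallisto-layout counts the intervals of Psma4, Psmc5 and Psmd6 included 1. Psmg1, which was over 1.2-fold apart, was 1.24-fold higher in replicate 1, with an interval of 0.991 to 1.55 that includes 1. The fifth member whose interval excluded 1 was Psmd10.

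Psmd10 encodes gankyrin, a chaperone of ankyrin repeats that binds the ATPase Psmc4, and is the 1 member on chromosome X (chrX:140948429-140956728, minus strand). It had 247 counts in replicate 1 and 341 in replicate 2, and was 1.35-fold higher in replicate 2 (interval 1.14 to 1.59). The kallisto-layout fold was 1.34 (1.13 to 1.60). Of genes on chromosome X, 11.1% of the 485 tested were over 1.2-fold apart, near the 10.4% of all genes. Xist, the RNA that coats the inactive X, had 57455 and 27714 counts, 2.12-fold higher in replicate 1, and its part in the Psmd10 value was not tested.

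The difference in Psmd10 lay in 1 of its 2 annotated transcripts. Psmd10-201, the full-length form, had 156 and 154 expected counts, a fold of 0.964 (interval 0.766 to 1.21). Psmd10-202 had 91 and 187, a fold of 2.01 (1.55 to 2.61). In the kallisto-layout counts the folds were 1.02 (0.802 to 1.30) and 1.84 (1.41 to 2.40). The leading form therefore changed from Psmd10-201 in replicate 1, with 62.2% of the TPM, to Psmd10-202 in replicate 2, and this was the single detected member of 45 whose leading form differed between libraries in the RSEM layout. These intervals cover counting error and not the error of dividing reads between forms. How often the leading form differed among all genes was not computed.

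The Psmd10 forms, annotated at 1430 and 1390 bases, differ in where exon 4 ends, among other places. The lines below run from 30 bases before the earlier splice site to the stop codon of Psmd10-202, in coding sequence of GENCODE M21 on GRCm38. Capitals mark the 79 bases that Psmd10-201 alone includes and, in Psmd10-202, the stop codon that the shorter exon brings into frame. The exon 4 parts are chrX:140952147-140952255 and chrX:140952226-140952255, and the exon 5 part of both is chrX:140949302-140949309.
Psmd10-201: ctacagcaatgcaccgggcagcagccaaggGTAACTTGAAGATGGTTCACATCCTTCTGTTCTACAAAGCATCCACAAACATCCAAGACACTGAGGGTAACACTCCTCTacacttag
Psmd10-202: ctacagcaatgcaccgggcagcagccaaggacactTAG
The shared last bases are read in another frame in Psmd10-201, where the coding sequence runs on. Psmd10-202 is annotated as protein coding, and whether its product is made cannot be read from RNA.

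Other members mostly kept the leading transcript between libraries, although their shares moved. The leading transcript was the same in both libraries for 44 of 45 detected members in the RSEM layout and 42 of 45 in the kallisto layout. Between the layouts it was the same for 36 of 45. In the RSEM layout Psmg3-201 held 56.9% of its gene in replicate 1 and 78.8% in replicate 2, and in the kallisto layout Psmc6-206 held 37.8% and 3.89%. The leading form held a median of 83.7% of the gene's TPM in the RSEM layout and over 90% in 17 members. Transcripts without a coding biotype, such as retained introns and targets of nonsense-mediated decay, held 14.3% ± 0.456 (SD, n = 2) of all member TPM. Retained introns made up 9.43%, decay targets 2.10% and other noncoding forms 2.77%. By expected counts the share without a coding biotype, called noncoding below and including decay targets, was 7.48%, because short transcripts weigh more per read in TPM. Transcript shares were computed for members alone, so how these counts and shares compare with those of all detected genes is not known.

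**Figure D3:**
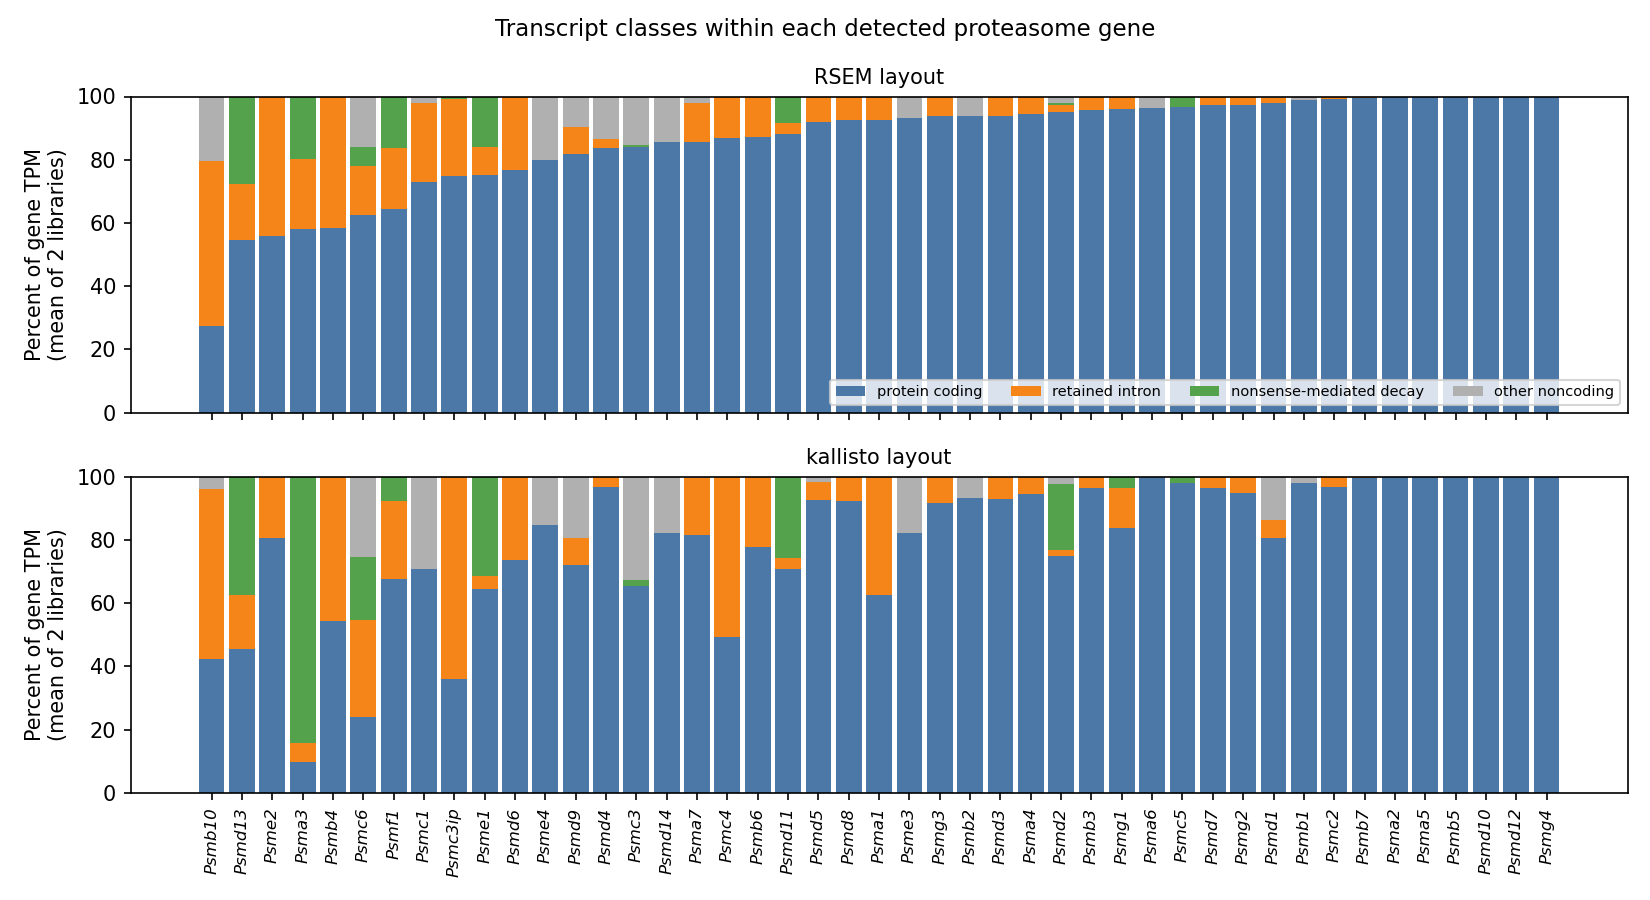
Percent of each detected gene's TPM (mean of 2 libraries) in protein-coding, retained-intron, nonsense-mediated decay and other noncoding transcripts, in the RSEM layout (top) and the kallisto layout (bottom), for 45 members in the order of their noncoding share in the RSEM layout. Psmb10 has the largest share without a coding biotype at the top, 72.5%, and Psma3 the largest at the bottom, 90.2%, mostly in decay targets.

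In 5 genes with a mean of at least 5 TPM the noncoding share was largest. It was 71.4% and 73.6% in Psmb10, 41.9% and 48.7% in Psmd13, 42.8% and 45.5% in Psme2, 42.9% and 41.0% in Psma3, and 39.5% and 43.8% in Psmb4. In Psmb10 the leading transcript was itself a retained-intron form of 554 bases, Psmb10-205, with 40.4% and 44.2% of the TPM. It was the 1 noncoding leader among the 45 in that layout. For Psmb4, coding transcripts alone gave 65.3 and 61.1 TPM, below Psmb5, Psmb7 and Psmb6, so its first place rested on retained-intron forms. In Psme2, a retained-intron form of 185 bases, Psme2-203, took 32.1% and 32.0% of the TPM from 15 and 18 counts. Levels of so short a form rest on few reads.

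In Psma3 the RNA was divided among many forms. Its leading coding form in the RSEM layout, Psma3-204, held 30.6% and 34.2% of its TPM, the lowest leading share among detected members by the mean of both libraries, followed by Psme2 (32.6% and 33.3%), Psmd13 (37.5% and 32.9%), Psmb10 and Psmd5 (51.9% and 48.3%). The kallisto layout gave Psma3-204 6.47 TPM in replicate 1 and 0 in replicate 2. There the decay target Psma3-201 led at 46.3% and 45.0%. Forms without a coding biotype held 87.8% and 92.7% of the gene, and decay targets made up 80.3% and 88.1% of the gene. The layouts thus placed much of the same gene in forms with or without a coding biotype, while the ratio of its total counts between them was 1.02. Other members changed between coding forms: Psmb1-201 held 92.4% and 85.7% of its gene in the RSEM layout and 2.33% and 1.99% in the kallisto layout, where Psmb1-204 held 94.3% in both libraries. Psmd8-202 held 90.5% and 91.9%, against 6.44% and 27.1%. These 2 examples, like those of Psmg3 and Psmc6 above, were chosen after their values were seen.

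Psma3-201 differs from the coding form Psma3-202 at the start of exon 3. The lines below join the last 30 bases of exon 2 (chr12:70978786-70978815, plus strand, GRCm38) to exon 3, which starts at 70983319 in Psma3-202 and at 70983324 in Psma3-201, and end at 70983342. Capitals mark the 5 bases that Psma3-201 lacks and the stop codon that this shift brings into frame.
Psma3-202: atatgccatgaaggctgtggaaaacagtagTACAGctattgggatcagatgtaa
Psma3-201: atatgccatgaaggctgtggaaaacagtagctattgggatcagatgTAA
The same letters near the end of Psma3-202 are in another frame and do not end its protein. A difference of 5 bases at a junction is seen only by reads that cross it.

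The layouts also differed in level. The kallisto-layout TPM was higher than the RSEM-layout TPM in 45 of 45 detected members, with a median ratio of 1.73, against 1.67 for detected protein-coding genes, so levels are compared here within a layout. The median ratio of counts was 0.998. Farthest above the median TPM ratio were Psmc6 (2.98), Psmd5 (2.36) and Psme3 (2.28). Farthest below it were Psma2 (1.21), Psmd4 (1.25) and Psme2 (1.25). Psmc6 had 32.8 and 31.7 TPM in the RSEM layout and 90.7 and 101 TPM in the kallisto layout, where noncoding forms held 74.0% and 78.2% of it against 36.5% and 38.7%. Its counts hardly differed, 1339 and 1365 against 1414 and 1462. In contrast, Psmb5 had 1702 and 1742 counts in the RSEM layout and 1069 and 1085 in the kallisto layout, a ratio of 1.60.

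**Figure D4:**
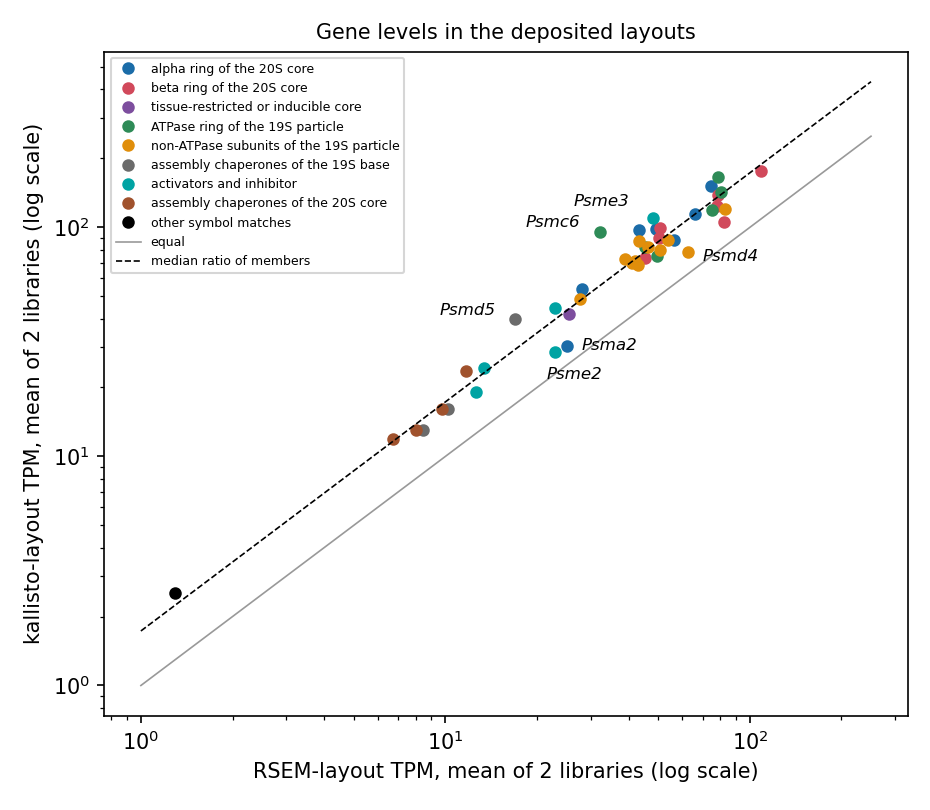
Kallisto-layout TPM against RSEM-layout TPM (both log axes, mean of 2 libraries) of the 45 detected members, coloured by role, with lines for equal values and for the median ratio of 1.73. The 3 members farthest from that ratio on each side are named, from Psmc6 at 2.98 to Psma2 at 1.21.

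Promoter windows were searched for 3 motifs. Only 1 of them is of the kind bound by Nfe2l1, a factor to which proteasome genes respond together. RefSeq windows (GRCm38.p6, 250 bases before to 50 after the start) matched 40 of 48 members by symbol. Genes were counted, with a match on either strand of any window of the gene. The antioxidant-type motif TGACNNNGC, of the kind bound by Nfe2l1 with its partners, was in 6 of 40 members (15.0%). It was in 14.0% of all genes with a window and 16.6% of the detected protein-coding genes among them. The CCAAT box was in 14 of 40 (35.0%), against 41.1% and 43.0%. The ETS-type motif CCGGAAG was in 15 of 40 (37.5%), against 9.93% and 19.5%. No match of 1 motif overlapped one of another. A match describes the letters in the window and not a bound site.

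The 3 members with a CCGGAAG match in the last 100 bases before the start, and no annotated exon there, are shown. This motif was chosen because it was the most frequent of the 3 relative to all genes with a window. Each line gives those 100 bases in the direction of the gene, with the match in capitals; CTTCCGG is the same motif on the other strand. They are chr16:20651552-20651651 (plus strand), chr11:80428515-80428614 (plus strand) and chr16:95990961-95991060 (minus strand).
Psmd2: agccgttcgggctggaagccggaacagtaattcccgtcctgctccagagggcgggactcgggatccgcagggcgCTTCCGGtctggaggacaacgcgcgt
Psmd11: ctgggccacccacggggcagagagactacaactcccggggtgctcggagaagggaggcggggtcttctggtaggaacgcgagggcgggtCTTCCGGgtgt
Psmg1: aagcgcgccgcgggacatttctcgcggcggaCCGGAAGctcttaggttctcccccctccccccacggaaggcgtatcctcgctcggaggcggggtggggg
Members with this motif ranged from Psmd2, at 83.0 and 83.2 TPM, to Psmc3ip, at 1.37 and 1.21 TPM.

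Genes that work beside the proteasome were also close between libraries. Of a list of 31 names, 29 were matched and tested, and 0 were over 1.2-fold apart, against 10.4% of all genes. The interval excluded 1 for 9 of 29 (31.0%, against 20.1%), 5 higher in replicate 2 and 4 in replicate 1, at a median count of 3362. Their median log2 ratio was -0.018. Ubb, which encodes a chain of ubiquitin units, was at 758 and 744 TPM, and Rps27a, which encodes ubiquitin joined to a ribosomal protein, at 197 and 200 TPM.

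Other steps of the pathway spanned a broad range of levels. Uba1, the main ubiquitin-activating enzyme, was at 153 and 144 TPM, and Uba6, the alternative one, at 8.34 and 8.33 TPM. Among the shuttles and the segregase, Ubqln2 was highest at 99.1 and 93.5 TPM and Ddi2, the protease that activates Nfe2l1, lowest at 21.1 and 18.2 TPM. Of the deubiquitinases and the ligase bound to the proteasome, Usp14 was highest at 61.3 and 60.6 TPM and Uchl5 lowest at 15.6 and 14.7 TPM. Pomp, the chaperone that completes the core, was at 60.05 and 69.4 TPM, above each of Psmg1 to Psmg4, and Sem1, a small lid subunit, at 17.5 and 17.4 TPM. Of the transcriptional regulators and their partners, Nfe2l1 was highest at 97.4 and 96.3 TPM and Nfe2l2 lowest at 6.58 and 6.06 TPM.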

How the data were processed

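Total RNA of 2 hippocampus libraries of 1 group was measured after reduction of ribosomal RNA with ERCC spike-ins added, per the labels. The authors deposited gene and transcript tables with an expected count, TPM and FPKM, and in the transcript table the percent of a gene's abundance in each transcript (RSEM layout, per the file headers). A second deposited transcript table holds an estimated count and TPM (kallisto layout, per the file headers). The build was mm10 with GENCODE M21, per the deposited notes; aligner, versions and strand use are not given in these sources, so reads of overlapping genes may be shared.

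Expected counts were rounded and scaled with TMM factors after filterByExpr (edgeR 4.0.16, R 4.3.3). Log2 ratios used a prior count of 2; folds had none and carry exact 95% binomial intervals, given both counts' sum, that cover counting error only. Over 17697 genes the estimated biological coefficient of variation was 4.66%. Kallisto-layout transcripts were summed per gene. Python 3.11.15, pandas 2.3.3, numpy 2.4.6, scipy 1.17.1 and matplotlib 3.10.9 were used.

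The members, picked by a rule on symbols, and the lists and settings were proposed with earlier results of these data known. Every member could be named; full values were given for the highest and lowest of each role, members over 1.2-fold apart, core variants, the 5 lowest leading shares and 5 highest noncoding shares, and the 3 farthest layout ratios on each side. Values on coding transcripts alone and the noncoding share by counts were added after seeing the data. Other settings were DESeq2 1.42.0 size factors, library and ERCC totals, count minimums of 10 and 200 or none, a prior count of 0.5, deposited TPM or FPKM, kallisto-layout values, means for medians, and each library alone. Markers of interneurons (5 of 5 detected, 410 and 388 TPM), astrocytes (5 of 5, 1064 and 1022 TPM) and endothelium (4 of 4, 62.1 and 61.4 TPM) were checked too. Some genes of the pathway list are not reported here.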

Additional observations from a re-analysis of the deposited data

How the results depend on the processing

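No paired analysis was possible because the labels give 1 group. Under the other scalings (DESeq2 size factors, library totals, ERCC totals) and kallisto-layout counts, 2 members stayed over 1.2-fold apart in number. The count was 1 of 41 with a minimum mean count of 200 (4.54% of all genes), 3 of 48 with none (42.5%) and 3 of 44 by deposited TPM (15.8%). With no minimum 1 member, Psme2b, was over 2-fold apart. Psmd10 stayed higher in replicate 2 and Psmg1 in replicate 1 by kallisto-layout counts (1.34-fold and 1.24-fold) and by deposited TPM. The share of gene counts in members ranged from 0.189% to 0.189% over single libraries, and was 0.186% by kallisto-layout counts and 0.241% of protein-coding counts.

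Role medians moved with the scale of the unit. In kallisto-layout TPM, FPKM and coding-only TPM they were 94.5, 36.1 and 43.4 for the alpha ring, 106, 56.2 and 63.2 for the beta ring, 107, 45.6 and 51.9 for the ATPases, and 77.8, 31.8 and 41.8 for the non-ATPase subunits. For the core variants they were 0.481, 0.150 and 0.160, for base chaperones 16.1, 7.50 and 9.09, and for activators and inhibitor 26.3, 13.1 and 11.4. For core chaperones they were 14.6 in kallisto-layout TPM and 6.50 in FPKM. Means in place of medians gave 70.5 TPM for the beta ring, 48.4 for the non-ATPase subunits, 8.59 for the core variants, 11.9 for base chaperones and 20.0 for activators and inhibitor. Over single libraries the medians ranged from 48.4 to 50.02 TPM for the alpha ring, 75.7 to 77.8 for the beta ring, 60.0 to 64.6 for the ATPases and 43.2 to 43.5 for the non-ATPase subunits. They ranged from 0.200 to 0.220 for the core variants, 9.77 to 10.7 for base chaperones, 17.5 to 18.2 for activators and inhibitor, and 8.31 to 9.44 for core chaperones.

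The spread of the core genes was 5.81-fold in kallisto-layout TPM and 3.28-fold over coding transcripts (4.16 to 4.52 over single libraries), and that of the 19S genes 3.43-fold and 3.92-fold (2.95 to 3.07). The Psmb10 share was 23.2% in the kallisto layout and 8.18% over coding transcripts (24.3% to 24.5% over single libraries). The noncoding share was 23.0% in the kallisto layout, 9.43% for retained introns alone and 7.48% by counts (14.0% to 14.6% over single libraries). The cause of the difference between layouts was not tested. Members under 50 mean counts are limited by depth.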

Other observations

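The 48 genes lie on 16 chromosomes, 10 of them on chromosome 11 and 6 each on chromosomes 14 and 2. Psmb5 and its thymus variant Psmb11 are neighbours on chromosome 14, 3410 bases apart, at 84.2 and 79.9 TPM for Psmb5 and 0.220 and 0.110 TPM for Psmb11. Psme1 and Psme2, whose products share a ring, are 5911 bases apart on the same chromosome.

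Several members share exonic bases with a neighbour on the opposite strand, and the strand setting of the counting is unknown, so reads there cannot be assigned with certainty. Psmb7 shares 11.8% of its exonic bases with Nek6 (927 and 1019 counts), Psmd13 10.1% with Sirt3 (1011 and 1020 counts), Psmc3 8.25% with Slc39a13 (457 and 477 counts), and Psmc3ip 21.2% with Mlx (523 and 515 counts). Psmd9 shares 25.5% with the noncoding gene Gm26745, which had 0 counts in both libraries. Psmb5 shares 12.1% with the microRNA gene Mir686 on the same strand, which had 0 counts in both.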
